A study of Saccharomyces cerevisiae with 4 samples.

Results

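The 7 genes described here encode the lysine biosynthesis enzymes of *Saccharomyces cerevisiae*: *LYS20* (YDL182W), *LYS21* (YDL131W), *LYS4* (YDR234W), *LYS12* (YIL094C), *LYS2* (YBR115C), *LYS9* (YNR050C) and *LYS1* (YIR034C). They were chosen by systematic name as enzymes of 1 pathway, with earlier results of these data known, and all 7 were among the 4777 genes of the deposited matrix. The matrix holds 4 yeastDrop-Seq libraries of haploid BY4741 cells (MATa his3Δ1 leu2Δ0 met15Δ0 ura3Δ0), a strain that carries an intact *LYS2*. The method captures the mRNA of a cell on a barcoded bead inside an oil droplet and counts the molecules by Unique Molecular Identifiers (UMIs). All cultures grew for 18 h in CSM minimal medium with 2% glucose. The DMSO condition contained 10 µM DMSO. MPA contained DMSO with 10 µM mycophenolic acid, an inhibitor of the IMP dehydrogenase step of GTP synthesis. MPA + Guanine contained DMSO, MPA and 10 µM guanine, a base from which yeast can make GMP by salvage. Guanine contained 10 µM guanine and, according to the Methods, no DMSO, so that the Guanine and DMSO conditions differ in both compounds. The sources used here do not state whether the medium contained lysine.

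Yeast makes lysine through the α-aminoadipate pathway, a route of fungi that starts from 2-oxoglutarate and acetyl-CoA. *LYS20* and *LYS21* encode the homocitrate synthases of the entry step, which lysine inhibits. *LYS4* encodes homoaconitase and *LYS12* homoisocitrate dehydrogenase, which continue the chain to 2-oxoadipate, and an aminotransferase then makes α-aminoadipate. *LYS2* encodes α-aminoadipate reductase, and *LYS9* and *LYS1* encode the saccharopine dehydrogenases that form saccharopine and release lysine. Transcription of these genes is known to depend on Lys14, an activator that senses the product of the Lys2 reaction, and on Gcn4, the activator of amino acid starvation.

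There were 233 cells in the DMSO library, 258 in Guanine, 85 in MPA and 268 in MPA + Guanine, no barcode was shared (0 of 844), and the totals ran from 102788 UMIs (MPA) to 311199 UMIs (DMSO). The median depth lay between 749.5 UMIs per cell (Guanine) and 1250 (DMSO). With 1 library per condition, no difference could be checked against replicates and no p-value is given. Library and condition cannot be told apart, and the 95% intervals below reflect counting error alone. No gene was detected in a library without reaching 2 UMIs in some cell of it, the pattern left by a gene filter run library by library, so a value of 0 does not show that a transcript was missing. Of the strain checks, *LEU2*, *MET17* and *URA3*, which BY4741 lacks, had no UMIs, and *LYS2* had UMIs in every library. Of 6 MATa-specific genes, *STE2*, *STE6*, *MFA1* and *AGA2* had UMIs in every library, *BAR1* was listed at 0 in Guanine, and *MFA2* had 8 UMIs in DMSO and was listed at 0 elsewhere. Of 4 MATalpha-specific genes, *SAG1* had 7 UMIs, in DMSO, and the others had 0. *HIS3* had between 28 and 205 UMIs per library, and the *his3* allele of the strain is a partial deletion.

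The coding regions are shown by position first, since the values of 2 of the genes depend on how reads of near-identical copies were assigned. In the R64 genome, the build of the authors' alignment, each of the 7 genes is annotated by RefSeq as 1 exon that equals the coding sequence, with 0 overlapping genes. *LYS20* lies on chromosome IV from 133437 to 134723 on the + strand, *LYS21* on IV from 227393 to 228715 (+) and *LYS4* on IV from 931129 to 933210 (+). *LYS12* lies on chromosome IX from 186517 to 187632 on the - strand, *LYS1* on IX from 419615 to 420736 (-), *LYS2* on II from 469748 to 473926 (-) and *LYS9* on XIV from 714048 to 715388 (-). *LYS20* and *LYS21* are paralogs, with 91.4% identity over 1281 aligned coding bases. Of all stretches of 50 bases, 37.8% of those in *LYS20* also occurred in *LYS21*. In the last 300 coding bases, near the end from which the beads prime, 0 of 251 such stretches were shared. A part of this end is shown to make the difference visible, 90 bases that stop 75 bases before the end of *LYS20* and 69 bases before that of *LYS21*, with the 22 bases that differ in capitals.
LYS20 (chrIV:134559-134648, + strand): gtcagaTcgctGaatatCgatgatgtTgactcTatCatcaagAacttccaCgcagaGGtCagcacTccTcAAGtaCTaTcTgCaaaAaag
LYS21 (chrIV:228557-228646, + strand): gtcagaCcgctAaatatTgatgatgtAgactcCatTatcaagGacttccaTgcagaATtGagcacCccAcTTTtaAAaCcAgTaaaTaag
Reads that end in such a stretch can be told apart by these bases, whereas reads from the shared stretches cannot. The treatment of reads with several matches is not given in the sources used here, so the separate values of *LYS20* and *LYS21* are uncertain, and their sum is given as well.

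The stretches upstream of the start codons are shown because most of the genes were high in the same libraries and subclusters. The 500 bases before each start codon were searched on both strands for TCCNNNGGA, a relaxed form of the site known for Lys14, and for TGACTC, the core of the site known for Gcn4. TCCNNNGGA was found for 4 of the 7 genes and for 5.95% of 6021 genes of the annotation. It began 196 bases before the start codon for *LYS1*, 225 and 163 bases for *LYS9*, 182 bases for *LYS12* and 330 bases for *LYS21*. TGACTC was found for 3 of the 7 genes (*LYS1*, *LYS12* and *LYS2*) and for 12.6% of all genes. No match says only that these letters are not in this window, and a match is a description of the sequence. The matches stand in capitals below, in RefSeq sequence of R64, in 140 bases that end 121 bases before the start codon and, for *LYS21*, in 60 bases that end 291 bases before it.
LYS1 (chrIX:420857-420996, - strand): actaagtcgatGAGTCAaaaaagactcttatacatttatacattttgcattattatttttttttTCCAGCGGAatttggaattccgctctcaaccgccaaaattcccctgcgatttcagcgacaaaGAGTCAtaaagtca
LYS9 (chrXIV:715509-715648, - strand): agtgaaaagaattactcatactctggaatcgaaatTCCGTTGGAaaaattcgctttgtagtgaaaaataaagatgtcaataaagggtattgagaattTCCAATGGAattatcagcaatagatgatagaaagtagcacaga
LYS12 (chrIX:187753-187892, - strand): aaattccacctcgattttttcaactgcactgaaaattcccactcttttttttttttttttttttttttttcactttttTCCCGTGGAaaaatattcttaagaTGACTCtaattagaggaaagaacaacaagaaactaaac
LYS2 (chrII:474047-474186, - strand): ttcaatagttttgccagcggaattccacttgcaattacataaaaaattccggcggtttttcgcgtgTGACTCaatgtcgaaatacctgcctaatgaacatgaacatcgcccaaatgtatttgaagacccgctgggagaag
LYS21 (chrIV:227043-227102, + strand): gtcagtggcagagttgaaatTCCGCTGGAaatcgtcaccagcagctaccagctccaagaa
The spacer within TCCNNNGGA differed among the 5 matches. In the stretches shown, *LYS1* holds TGACTC as its reverse complement on both sides of its TCCNNNGGA, *LYS12* holds 1 match of each motif, and *LYS2* holds TGACTC alone.

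The 7 genes together had 321 UMIs in DMSO, 605 in Guanine, 128 in MPA and 385 in MPA + Guanine. Scaled to 1000000 UMIs of the library (counts per 1000000, CPM), this was 1031 for DMSO (exact Poisson interval 922 to 1151), 2791 for Guanine (2573 to 3023), 1245 for MPA (1039 to 1481) and 1376 for MPA + Guanine (1242 to 1520). The Guanine library was thus high, and its interval did not overlap any other. Its sum included the 18 UMIs of *LYS4*, which was listed at 0 in the other libraries. The intervals of MPA overlapped those of DMSO and of MPA + Guanine, and those of DMSO and MPA + Guanine did not overlap each other. *LYS20* contributed more UMIs than any other of the genes in every library, from 34.0% of the sum in DMSO to 43.8% in MPA.

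*LYS20*, the homocitrate synthase with the most UMIs of the 7 genes, had 109 UMIs in DMSO (350 CPM), 224 in Guanine (1033 CPM), 56 in MPA (545 CPM) and 132 in MPA + Guanine (472 CPM). Its interval in Guanine, 902 to 1178 CPM, lay above the other 3, which overlapped one another. *LYS21*, its paralog, had 45 UMIs in DMSO (145 CPM), 90 in Guanine (415 CPM), 13 in MPA (126 CPM) and 39 in MPA + Guanine (139 CPM). The values of *LYS21* in the 3 libraries other than Guanine could not be told from each other by counting error. The sum of both paralogs was 495 CPM in DMSO, 1449 in Guanine, 671 in MPA and 611 in MPA + Guanine, with the same order at the top.

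*LYS4* (homoaconitase) had 18 UMIs in 16 of 258 cells of the Guanine library, or 83.0 CPM (49.2 to 131), and was listed at 0 in DMSO, MPA and MPA + Guanine. In view of the filter described above no ratio was formed, and *LYS4* also fell short of the 50 UMIs over all libraries required of the genes in the shares over all genes given below. *LYS12* (homoisocitrate dehydrogenase) had 69 UMIs in DMSO (222 CPM), 99 in Guanine (457 CPM), 18 in MPA (175 CPM) and 74 in MPA + Guanine (264 CPM). Guanine was again above the other libraries, which overlapped one another.

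*LYS2*, the reductase in the middle of the pathway, had few UMIs and showed no such order. It had 24 UMIs in DMSO (77.1 CPM), 25 in Guanine (115 CPM), 12 in MPA (117 CPM) and 25 in MPA + Guanine (89.3 CPM), and all 4 intervals overlapped. For *LYS9*, which forms saccharopine, there were 31 UMIs in DMSO (99.6 CPM), 55 in Guanine (254 CPM), 14 in MPA (136 CPM) and 52 in MPA + Guanine (186 CPM). Guanine and DMSO did not overlap, whereas Guanine overlapped both MPA and MPA + Guanine. *LYS1*, which releases lysine, had 43 UMIs in DMSO (138 CPM), 94 in Guanine (434 CPM), 15 in MPA (146 CPM) and 63 in MPA + Guanine (225 CPM), and its Guanine interval of 350 to 531 CPM lay above all others.

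**Figure D1:**
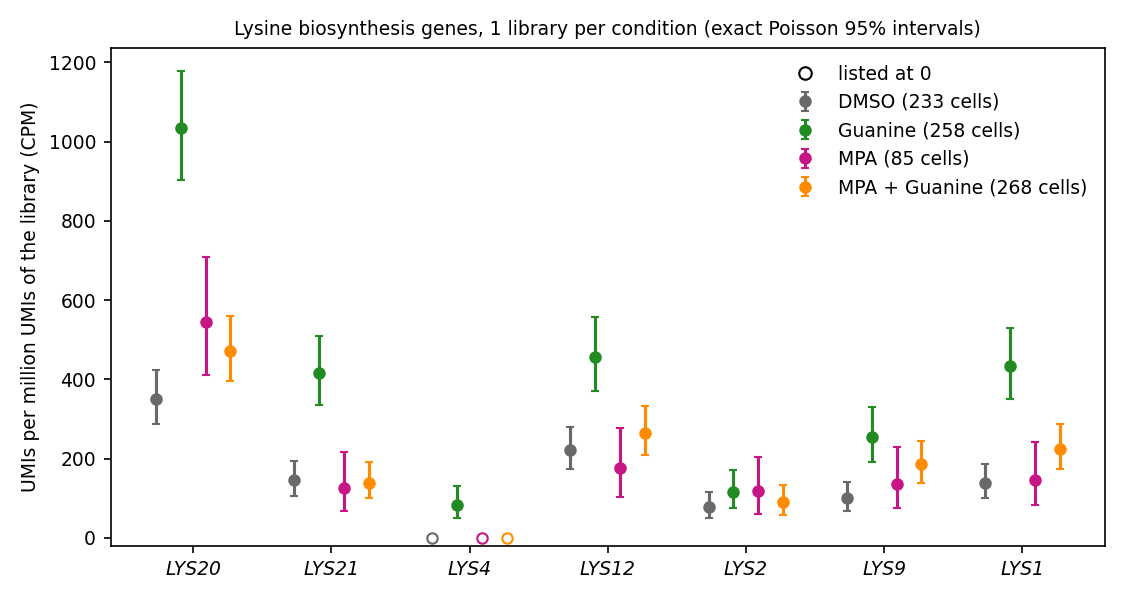
Level of each lysine biosynthesis gene in the 4 libraries, in CPM on the vertical axis, with genes in pathway order on the horizontal axis. Points are the value of a library, bars its exact Poisson 95% interval, and open circles genes listed at 0. *LYS20* reaches 1033 CPM in Guanine, and *LYS2* stays between 77.1 and 117 CPM in all libraries.

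Levels of different genes were compared per kb of coding length. In DMSO, *LYS20* had 272 CPM per kb (223 to 328) and *LYS12* 199 (155 to 251), with overlapping intervals, followed by *LYS1* with 123, *LYS21* with 109 and *LYS9* with 74.3, of which each neighbour in the order overlapped the next. *LYS2*, the longest gene with 4179 coding bases, was the lowest of the 6 genes with UMIs in DMSO at 18.5 CPM per kb (11.8 to 27.5), below the interval of every other. In Guanine the order was *LYS20* with 803, *LYS12* with 409, *LYS1* with 386, *LYS21* with 314, *LYS9* with 189, *LYS4* with 39.9 and *LYS2* with 27.6 CPM per kb. *LYS20* stood above all others there, and *LYS4* and *LYS2* overlapped at the bottom. Since the beads capture molecules at their poly(A) ends, a division by length may understate a long gene such as *LYS2*, which was not tested. Without the division, *LYS2* in DMSO was at 77.1 CPM (49.4 to 115), which overlapped the intervals of *LYS9*, *LYS1* and *LYS21*. In Guanine it was at 115 CPM, against 83.0 CPM for *LYS4*. In DMSO *LYS2* was therefore the lowest of the 6 genes on either scale, and only its lack of overlap with the others depends on the division. In Guanine its place below *LYS4* depends on the division.

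The comparison of Guanine with DMSO asks what guanine without MPA does to the cells. The lysine genes were 2.71-fold higher in Guanine when summed, a log2 ratio of 1.44 (exact binomial interval 1.24 to 1.64). Over the 6 genes with UMIs in both libraries, which leaves out *LYS4*, the summed log2 ratio was 1.39 (1.19 to 1.59). Of the 6 genes with a ratio, 5 were at least 2-fold higher and 0 at least 2-fold lower, with a median log2 ratio of 1.44. Over all 2115 genes compared, which had UMIs in both libraries and 50 or more in total, 9.13% were at least 2-fold higher and 5.01% at least 2-fold lower, and the median was 0.05. The log2 ratio was 1.65 for *LYS1* (1.11 to 2.21), 1.56 for *LYS20* (1.22 to 1.90), 1.52 for *LYS21* (0.99 to 2.07) and 1.35 for *LYS9* (0.69 to 2.03). *LYS12* lay at the 2-fold mark with 1.04 (0.58 to 1.51). *LYS2* had a log2 ratio of 0.58 with an interval from -0.29 to 1.45, which holds both no difference and a 2-fold one. When each cell had equal weight, 4 rather than 5 genes were at least 2-fold higher.

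The comparison of MPA with DMSO asks what the inhibitor does. The summed lysine genes had a log2 ratio of 0.27 (-0.04 to 0.57), near the median of 0.18 over all 1866 genes compared. Of 6 genes, 0 were at least 2-fold higher or lower, against 8.09% of all genes higher and 3.8% lower. *LYS20* was 1.56-fold higher, a log2 ratio of 0.64 (0.15 to 1.12), and was the 1 gene of the 6 whose interval did not include 0. *LYS21* had -0.19 (-1.21 to 0.72), so the paralogs had opposite signs within overlapping intervals. *LYS12* had -0.34 (-1.18 to 0.42), *LYS2* 0.60 (-0.54 to 1.65), *LYS9* 0.45 (-0.57 to 1.40) and *LYS1* 0.08 (-0.88 to 0.96). Each of these intervals reached past 1.5-fold in at least 1 direction, so that differences of this size were not detectable at the depth of the MPA library. With *LYS20* left out, the summed log2 ratio was 0.04.

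In MPA + Guanine against DMSO, which sets the combined treatment against the control, the summed log2 ratio was 0.42 (0.20 to 0.63), against a median of 0.26 over 2351 genes. Without ribosomal protein genes in the library totals it was 0.13. Of 6 lysine genes, 0 were at least 2-fold higher or lower, beside 9.44% of all genes higher and 2.55% lower. The saccharopine dehydrogenase genes had the highest ratios, 0.90 for *LYS9* (0.23 to 1.59) and 0.70 for *LYS1* (0.12 to 1.30), followed by 0.43 for *LYS20* (0.05 to 0.81). The intervals of *LYS12*, *LYS2* and *LYS21* included 0.

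MPA + Guanine against Guanine asks what MPA adds when guanine is present, with the difference that only MPA + Guanine contained DMSO. The lysine genes were 2.03-fold lower in MPA + Guanine when summed, a log2 ratio of -1.02 (-1.21 to -0.83), while the median of all 2130 genes was 0.15. Over the 6 genes with UMIs in both libraries, which leaves out *LYS4*, the summed log2 ratio was -0.98 (-1.17 to -0.79), under 2-fold. Of 6 genes, 2 were at least 2-fold lower and 0 at least 2-fold higher, against 8.36% of all genes lower and 14.9% higher. These were the homocitrate synthase genes *LYS21* with -1.57 (-2.16 to -1.02) and *LYS20* with -1.13 (-1.45 to -0.81). *LYS1* with -0.95 (-1.43 to -0.47) and *LYS12* with -0.79 (-1.24 to -0.34) were lower by less than 2-fold, and *LYS9* and *LYS2* had intervals that included 0. The number of genes at least 2-fold lower was 3 with TMM scaling, 4 without ribosomal protein genes in the totals and 1 with equal weight of the cells.

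MPA + Guanine against MPA asks what guanine adds in the presence of the inhibitor. The summed log2 ratio was 0.14 (-0.15 to 0.44), and the median of 1881 genes was 0.04. Of 6 lysine genes, 0 were at least 2-fold higher or lower, beside 9.78% of all genes higher and 8.67% lower, and the interval of each gene included 0. The comparisons share libraries, so that their ratios are not independent of each other.

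**Figure D2:**
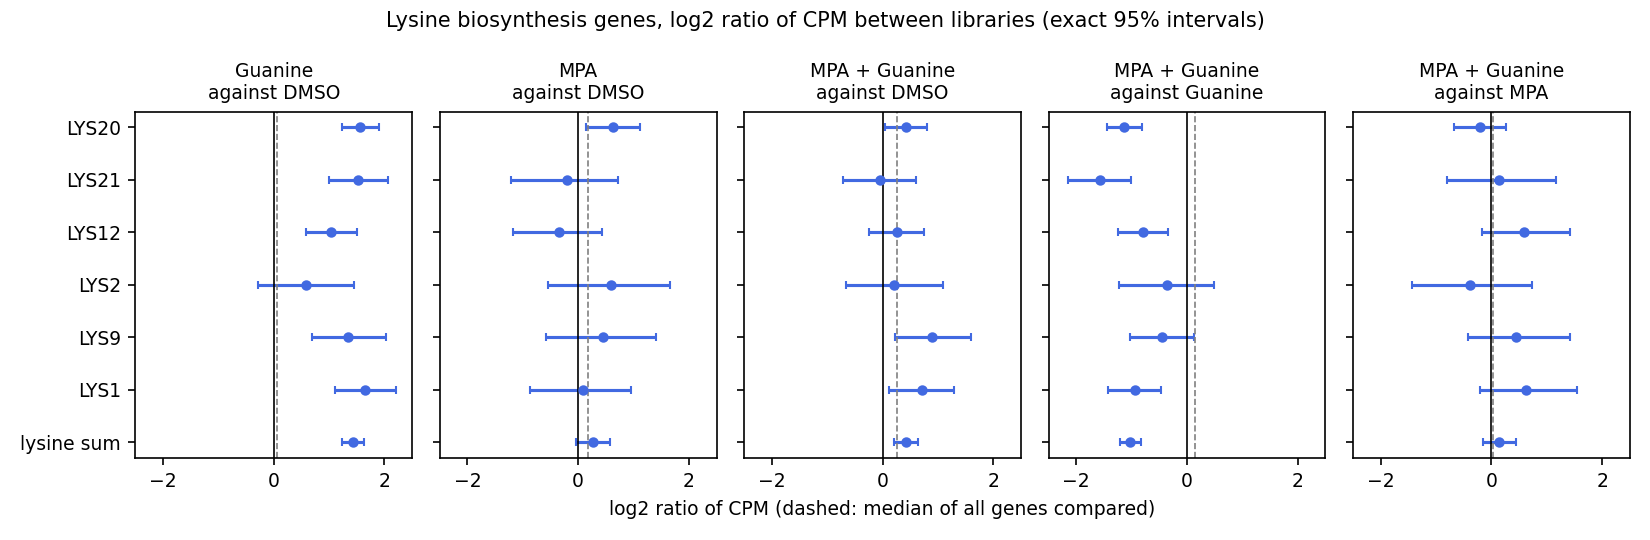
Log2 ratio of CPM (horizontal axis, 0 is no difference) for the 6 lysine genes with a ratio and for the sum of all 7, in 5 comparisons of libraries. Points are ratios, bars exact 95% intervals for counting error, and dashed lines the median of all genes compared. The sum lies at 1.44 for Guanine against DMSO and at -1.02 for MPA + Guanine against Guanine.

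Among 13 other genes tied to lysine, 10 had a ratio for Guanine against DMSO, of which 2 were at least 2-fold higher and 0 at least 2-fold lower, beside 9.13% and 5.01% of all genes, with a median log2 ratio of 0.79. Among the 8 with at least 50 UMIs, as required of all genes, 1 was at least 2-fold higher. The higher ones were *LYS5*, which encodes the enzyme that activates Lys2, with 1.59 (0.49 to 2.77) from 11 and 23 UMIs and thus under that minimum, and *IDP1*, a mitochondrial isocitrate dehydrogenase that makes 2-oxoglutarate, with 1.44 (1.17 to 1.71) from 172 and 325 UMIs. The regulators lay below 2-fold. *GCN4* had 0.88 (0.54 to 1.22) and *LYS14* 0.81 (0.10 to 1.53), and *ARO8*, an aminotransferase able to make α-aminoadipate, had 0.78 (0.29 to 1.28). Genes that use or move lysine showed smaller ratios, 0.02 for the cytosolic lysyl-tRNA synthetase *KRS1* (-0.28 to 0.32) and 0.34 for the lysine permease *LYP1* (-0.34 to 1.01). The carriers of 2-oxoadipate between mitochondria and cytosol had 0.97 for *ODC1* (-0.25 to 2.24) and -0.08 for *ODC2* (-0.57 to 0.40), and the aconitase gene *ACO1* had 0.42 (-0.37 to 1.21). *MKS1*, a regulator of nitrogen and lysine metabolism, had 12 UMIs in MPA and 21 in MPA + Guanine, and the mitochondrial lysyl-tRNA synthetase *MSK1* had 10 in MPA + Guanine, with both listed at 0 elsewhere.

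In the other comparisons fewer of these 13 genes had a ratio. For MPA against DMSO there were 6, of which 0 were past 2-fold, beside 8.09% of all genes higher and 3.8% lower. *LYS14* had -0.82 from 32 UMIs in DMSO and 6 in MPA. *ARO8*, with 66 UMIs in DMSO, was listed at 0 in MPA, as were *ACO1*, *LYS5* and *ODC1*. For MPA + Guanine against Guanine there were 9, of which 2 were at least 2-fold lower, *ACO1* with -1.18 and *GCN4* with -1.04. Of all genes, 8.36% were at least 2-fold lower and 14.9% at least 2-fold higher there. For MPA + Guanine against DMSO 1 of 9 was at least 2-fold higher, beside 9.44% of all genes, and 0 at least 2-fold lower. It was *ODC1* with 1.02, which had under 50 UMIs over the libraries, and 0 of the 8 genes above that minimum were 2-fold higher. For MPA + Guanine against MPA 1 of 7 was at least 2-fold higher, *LYS14* with 1.10, beside 9.78% of all genes, and 0 at least 2-fold lower. The intervals of *ODC1* and *LYS14* included 0 in these comparisons.

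Other amino acid pathways were summed in the same way for comparison with the lysine genes. For Guanine against DMSO the summed log2 ratio was 1.82 for 8 arginine genes (1.65 to 1.99), 1.27 for 6 histidine genes (1.03 to 1.51), 1.07 for 10 branched-chain genes (0.97 to 1.17) and 0.78 for 12 aromatic genes (0.62 to 0.94). The lysine value of 1.44 thus lay between those of arginine and histidine, and its interval overlapped that of histidine. Over the genes with UMIs in both libraries the lysine sum was 1.39 (1.19 to 1.59) and the aromatic sum 0.85 (0.69 to 1.02), and the other sums did not change. For MPA against DMSO the sums were 0.27 for lysine, with an interval that included 0, -1.81 for arginine, -0.50 for histidine, -0.26 for branched-chain and -0.10 for aromatic genes. These values include genes listed at 0 in MPA, to which the filter described above applies, namely 5 of 8 arginine, 4 of 6 histidine, 1 of 10 branched-chain and 5 of 12 aromatic genes. Over the genes with UMIs in both libraries the sums were -1.01 for 3 arginine genes (-1.56 to -0.51), 0.06 for 2 histidine genes (-0.42 to 0.51), -0.26 for 9 branched-chain genes (-0.42 to -0.09) and 0.19 for 7 aromatic genes (-0.07 to 0.43). The lysine value stayed at 0.27 on this scale, and the signs of the histidine and aromatic sums were not the same on both. For MPA + Guanine against Guanine all 5 sums were lower, with -1.62 for branched-chain, -1.47 for arginine, -1.02 for lysine, -0.96 for histidine and -0.53 for aromatic genes. Over the genes with UMIs in both libraries these sums were -1.57, -1.44, -0.98, -0.96 and -0.53 in the same order. No test of these differences was possible with 1 library per condition.

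The cells of each library carry subcluster labels from SC3, deposited by the authors. Because SC3 used the counts described here, and because *LYS1*, *LYS9*, *LYS12* and *LYS20* are on the study's own marker list of a Guanine subcluster, their values here are a description. Summed lysine genes were at 701 CPM in DMSO.1 (177 cells, interval 600 to 814) and 2258 CPM in DMSO.2 (56 cells, 1910 to 2652). In the Guanine library they were at 1349 CPM in Guanine.1 (135 cells) and 3946 CPM in Guanine.2 (123 cells, 3599 to 4317). MPA had a single subcluster, MPA.1, at 1245 CPM. In MPA + Guanine the values were 1130 CPM in MG.1 (166 cells), 2182 CPM in MG.2 (77 cells) and 855 CPM in MG.3 (25 cells, 468 to 1435, from 14 UMIs). Without cells in which 1 gene held over 10% of the UMIs, MG.3 was at 1506 CPM, above MG.1 and below MG.2. Each library with several subclusters therefore held a high one, with 24.0% of the cells in DMSO, 47.7% in Guanine and 28.7% in MPA + Guanine. DMSO.2 and MG.2 overlapped each other and lay above Guanine.1, and Guanine.2 lay above all. The median depth was 1304 UMIs per cell in DMSO.1 and 1026.5 in DMSO.2, 673 in Guanine.1 and 934 in Guanine.2, and 1097.5 in MG.1 and 807 in MG.2, so the high subcluster was the deeper of the pair in Guanine and the shallower in DMSO and MPA + Guanine.

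**Figure D3:**
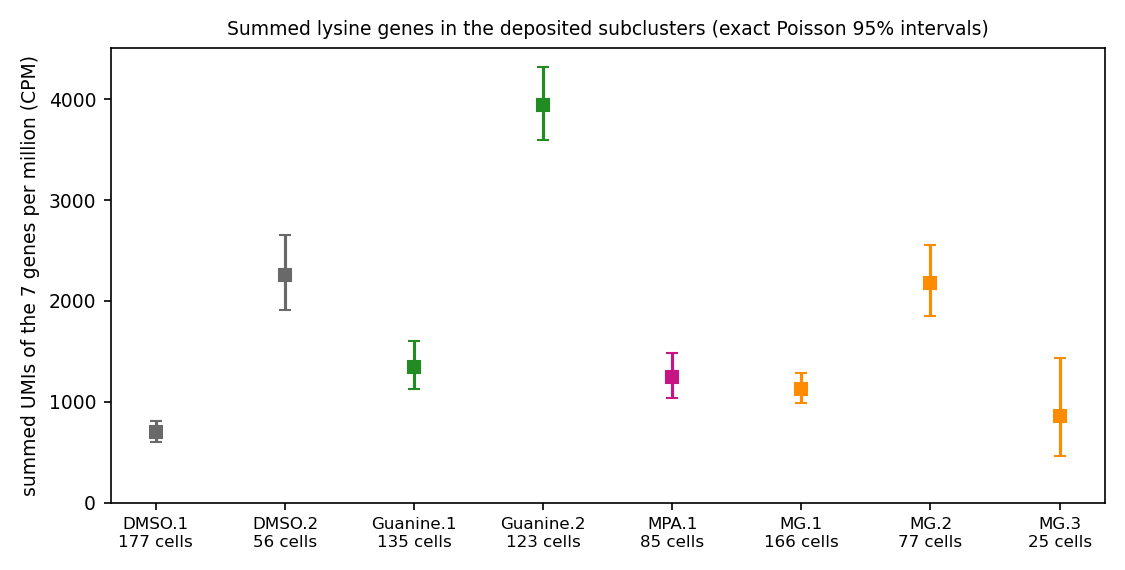
Summed level of the 7 lysine genes in CPM (vertical axis, from 0) in the 8 deposited subclusters (horizontal axis, with cells). Squares are subcluster values and bars exact Poisson 95% intervals. DMSO.2, Guanine.2 and MG.2, at 2258, 3946 and 2182 CPM, stand above the other subclusters of their libraries.

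Between the high and the low subcluster the genes differed in size. In Guanine.2 against Guanine.1, 6 of 7 genes were at least 2-fold higher, beside 16.8% of 2170 genes, with *LYS4* counted although it fell short of 50 UMIs. Their ratios ran from 1.41 for *LYS20* to 2.75 for *LYS1* on the log2 scale, and *LYS21* had 0.83 (0.16 to 1.52). In DMSO.2 against DMSO.1 all 6 genes with a ratio were at least 2-fold higher, beside 13.5% of 2386 genes. The ratios were widest here. *LYS1* had 10 UMIs in DMSO.1 (40.8 CPM) and 33 in DMSO.2 (500 CPM), a log2 ratio of 3.62 (2.56 to 4.80), and *LYS2* had 7 UMIs (28.5 CPM) and 17 (258 CPM), a ratio of 3.17 (1.83 to 4.69), whereas *LYS9* had 1.03 (-0.18 to 2.16). In MG.2 against MG.1, 3 of 5 genes with a ratio were at least 2-fold higher, *LYS21* with 2.36, *LYS12* with 1.35 and *LYS20* with 1.03, beside 5.84% of 2399 genes. *LYS1* had 0.95 and *LYS9* 0.31 (-0.64 to 1.19) there. *LYS2* went the other way, with 25 UMIs in 166 cells of MG.1 and 0 UMIs in 77 cells of MG.2, which allows a share of cells with a UMI of up to 4.68% (exact binomial bound).

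*LYS4* had 4 UMIs in Guanine.1 (41.5 CPM) and 14 in Guanine.2 (116 CPM), a log2 ratio of 1.49 with an interval from -0.18 to 3.55. The summed ratios of the other pathways between Guanine.2 and Guanine.1 were 2.35 for arginine, 2.14 for histidine, 1.63 for branched-chain and 1.33 for aromatic genes, beside 1.55 for lysine. *LYS14* had 2.81, *IDP1* 2.14 and *GCN4* 1.46 in the same comparison. In MG.2 against MG.1, where the lysine sum had 0.95 (0.64 to 1.25), *LYS14* had -1.06, *GCN4* -0.56 and *IDP1* -0.06.

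**Figure D4:**
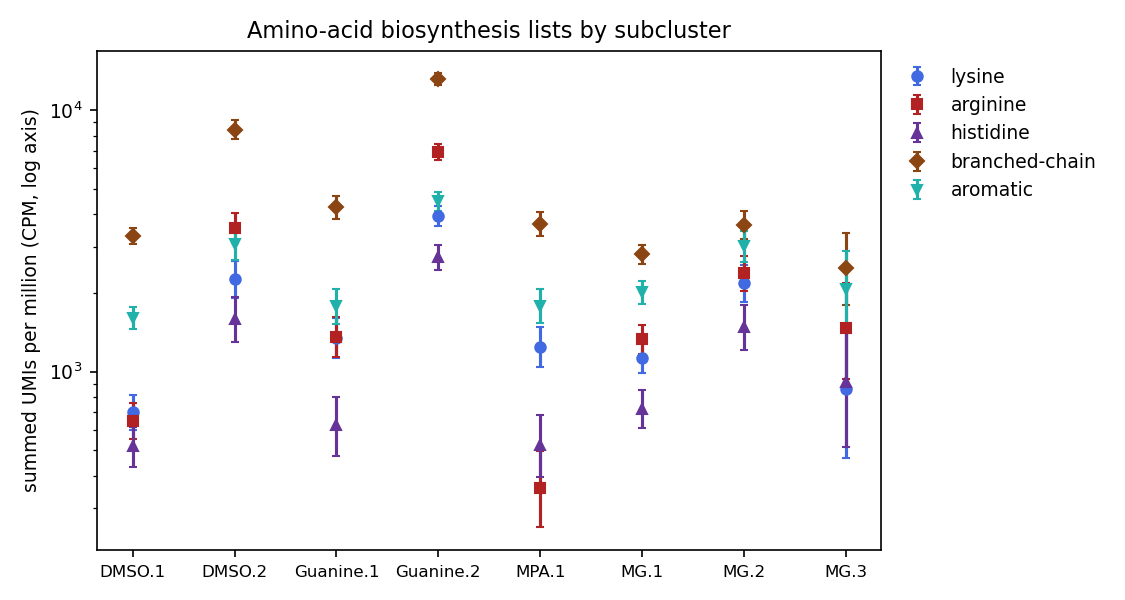
Summed level in CPM (vertical log axis) of the lysine, arginine, histidine, branched-chain and aromatic amino acid genes in the 8 deposited subclusters (horizontal axis), with exact Poisson 95% intervals as bars. All 5 sums are high in DMSO.2 and Guanine.2, and in MPA.1 the arginine sum lies below the lysine sum, at 360 against 1245 CPM.

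The authors also clustered the cells of all libraries together into 4 clusters, which puts cells of different libraries side by side. In its cluster 2 the lysine sum was 2961 CPM in 34 DMSO cells (2451 to 3546), 3921 CPM in 128 Guanine cells (3577 to 4288) and 2467 CPM in 28 MPA + Guanine cells (1896 to 3157). In cluster 1 it was 694 CPM in 175 DMSO cells (592 to 809), 1354 CPM in 121 Guanine cells (1124 to 1616) and 1011 CPM in 34 MPA + Guanine cells (708 to 1399). Within clusters 1 and 2 Guanine was above DMSO, by a smaller factor than between whole libraries. The intervals were well apart in cluster 1, whereas in cluster 2 they only just missed each other, at 3546 and 3577 CPM. The Guanine sums include *LYS4*, which was listed at 0 in DMSO, and no value without it was formed for these clusters. In cluster 3 the order was the other way with overlap, with 1298 CPM in 16 DMSO cells (909 to 1797) and 1225 CPM in 8 Guanine cells (398 to 2858). Cluster 3 also held 80 of 85 MPA cells at 1193 CPM and 60 MPA + Guanine cells at 1219 CPM, and cluster 4 held 146 MPA + Guanine cells at 1339 CPM. These clusters also rest on the same counts.

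Genes whose levels were most like the lysine sum over the 8 subclusters were sought among 1218 genes with at least 100 UMIs and a UMI in each subcluster. The highest Pearson correlations of log2 CPM were 0.97 for *HOM2* and for *HIS3*, and 0.95 for *ERV1*, *ILV6* and *RIB3*. *HOM2* encodes aspartate semialdehyde dehydrogenase, of the threonine and methionine route, *HIS3* an enzyme of histidine synthesis, *ILV6* the regulatory subunit of acetolactate synthase and *RIB3* an enzyme of riboflavin synthesis. *HOM2* ran from 485 CPM in DMSO.1 to 2891 CPM in Guanine.2. The 8 points share cells, depth and the clustering itself, so these values describe the libraries.

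In single cells the counts were sparse. Cells were thinned to 400 UMIs each to remove the difference in depth, which left out 4 DMSO, 33 Guanine, 0 MPA and 13 MPA + Guanine cells. At that depth at least 1 lysine UMI was found in 70 of 229 DMSO cells, or 30.6% (exact binomial interval 24.7% to 37.0%), and in 137 of 225 Guanine cells, or 60.9% (54.2% to 67.3%). In MPA it was 32 of 85 cells, or 37.6% (27.4% to 48.8%), and in MPA + Guanine 100 of 255, or 39.2% (33.2% to 45.5%). The share in Guanine lay above the intervals of the others, which overlapped. Thinning kept 108 of 135 Guanine.1 cells and 117 of 123 Guanine.2 cells. It thus also changed the mix of subclusters behind the Guanine share, with more cells lost from the low one. Without thinning the shares were 60.5%, 70.9%, 64.7% and 63.8% in the same order of libraries, over all cells at their own depth, and the intervals of DMSO and Guanine then overlapped. No cells that lack these genes were in the libraries, and the share that free RNA gives was therefore not measured.

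Cells with UMIs of 2 or more different lysine genes at this depth made up 26.2% of Guanine cells, against 7.42% of DMSO, 11.8% of MPA and 12.2% of MPA + Guanine cells. The shares of cells count *LYS4*, which had UMIs in 8 of 225 thinned Guanine cells and was listed at 0 in the other libraries. By subcluster, at least 1 lysine UMI was found in 76.1% of 117 Guanine.2 cells and 44.4% of 108 Guanine.1 cells, in 48.1% of 52 DMSO.2 cells and 25.4% of 177 DMSO.1 cells, and in 56.0% of 75 MG.2 cells and 33.1% of 163 MG.1 cells.

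**Figure D5:**
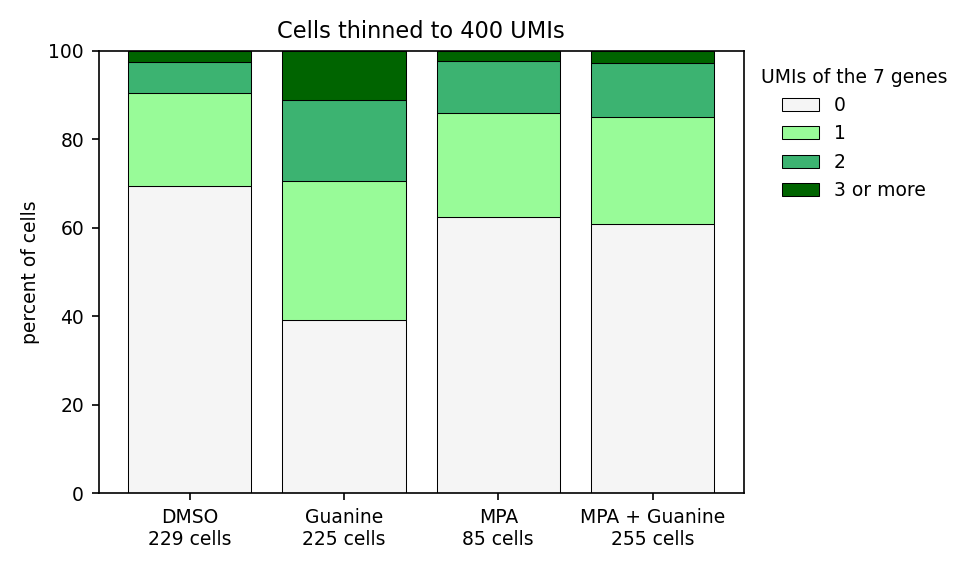
Percent of cells (vertical axis) with 0, 1, 2 or 3 or more UMIs of the 7 lysine genes after thinning to 400 UMIs per cell, for the 4 libraries (horizontal axis, with cells). Cells with no lysine UMI make up 69.4% in DMSO and 39.1% in Guanine, and cells with 3 or more make up 2.62% and 11.1%.

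The spread between cells was measured as the variance to mean ratio of the summed lysine UMIs in thinned cells, which is 1 for counting noise alone. It was 1.70 in DMSO (chi-square interval 1.43 to 2.06), 1.44 in Guanine (1.20 to 1.74), 1.29 in MPA + Guanine (1.09 to 1.55) and 1.17 in MPA (0.88 to 1.62). The MPA interval included 1, and those of the other 3 libraries lay above it. At 200 UMIs per cell this held for Guanine alone, with 1.29 (1.09 to 1.54), whereas DMSO had 1.12 (0.94 to 1.36) and MPA + Guanine 1.17 (0.99 to 1.39). Thinning itself brings the ratio nearer to 1, so an interval that includes 1 at 200 UMIs does not show that the spread was absent. The ratio also depends on the mean, which at 400 UMIs was 0.45 lysine UMIs per cell in DMSO and 1.10 in Guanine. Ratios of different libraries or depths are therefore not on 1 scale. Within DMSO.1 and Guanine.1 the ratio was 1.03 and 1.01, both with intervals that included 1, and within Guanine.2 it was 1.30 (1.02 to 1.71). Within DMSO.2 it was 2.14 from 52 cells, with an interval above 1, but 1.54 at 600 UMIs (1.07 to 2.42) and 1.17 at 200 UMIs (0.83 to 1.77). Guanine.2 likewise had intervals that included 1 at 200 and 600 UMIs. The DMSO cell with the most lysine UMIs belonged to DMSO.2 and held 19 of them among 1620 UMIs, with 7 of *LYS20*, 5 of *LYS21*, 2 of *LYS2* and 5 of *LYS1*. Correlations between pairs of lysine genes over thinned cells were weak, with a median of 0.07 in DMSO, 0.02 in Guanine, -0.03 in MPA and 0.02 in MPA + Guanine. Single pairs ran from -0.10 in Guanine to 0.34 for *LYS2* and *LYS21* in DMSO. The highest mean of a gene in a library was 0.33 UMIs per thinned cell, for *LYS20* in Guanine. At such counts counting noise keeps correlations low, so these values do not show whether the genes vary together between cells.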

How the data were processed

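The authors trimmed the reads with Trimmomatic, aligned them with STAR (R64-1-1), counted UMIs by gene in each cell using UMI-tools and took out outlying cells by scater. The deposited counts are whole numbers without normalization, in 1 matrix for 844 cells and 910561 UMIs, with 0 columns of other samples. Subcluster and cluster labels, also deposited by the authors, came from SC3. The handling of reads with several matches and of strand is not given in the sources used here.

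UMIs were summed per library or subcluster and divided by its total to give CPM, with exact Poisson intervals. Log2 ratios carry exact conditional binomial (Clopper-Pearson) intervals, without a pseudocount, and none was formed for genes listed at 0. A gene was counted as higher or lower at 2-fold, against the share of all genes with at least 50 UMIs. For thinning, 400 UMIs were drawn per cell without replacement (seed 1). No cell was removed as a doublet. The study's test over single cells was not used, because cells are not replicates. Depth per library limits the precision as the intervals show.

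The text names all members and the genes of a fixed list tied to lysine, of which 1 is not reported here, other pathways as sums, and the 5 genes most like the members over the subclusters. The members and lists were chosen with earlier results of these data known. Intervals and ratios were tested on simulated library sums drawn as Poisson counts. The simulation held no spread between cells beyond counting noise, so it checks the calculation and not how the intervals cover that spread. Alternatives were other scalings (TMM from edgeR 4.0.16 in R 4.3.3), cell filters, fold and UMI minimums, thinning depths, comparators and leaving each gene out of the sum. The versions were matplotlib 3.10.9, biopython 1.88, scipy 1.17.1, numpy 2.4.6 and pandas 2.3.3 under Python 3.11.15.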

Additional observations from a re-analysis of the deposited data

Results flagged for a closer look

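The difference between the log2 ratio for MPA with guanine (MPA + Guanine against Guanine) and that without (MPA against DMSO) was looked at again, because the ratios had opposite signs for 4 of 6 lysine genes and for their sum. It was -1.29 for the sum, from 0.27 without guanine, where the interval of -0.04 to 0.57 included 0, to -1.02 with it. Without *LYS4*, which was listed at 0 in MPA + Guanine, the summed ratio with guanine was -0.98. The difference was -1.77 for *LYS20*, -1.02 for *LYS1*, -0.97 for *LYS2* and -0.90 for *LYS9*. For *LYS2*, *LYS9* and *LYS1* the interval of the ratio without guanine included 0, and for *LYS2* and *LYS9* also that with guanine. With 1 library in each arm the difference was not tested, and the arms also differ in DMSO, which the Guanine medium lacked.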

How the results depend on the processing

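No value past 2-fold changed sign, and 72 of 78 alternative values of the summed log2 ratios and 252 of 258 of the single genes stayed within the interval of the value reported. The other results were counts of genes, shares of all genes, shares of cells, variance to mean ratios and subcluster levels. Of their alternative values, 64 of 158 moved, which means out of the interval or, for counts of genes and shares of all genes, by more than 1.5-fold. Against the other 3 libraries pooled in place of DMSO, the summed log2 ratio was -0.38 for MPA, -0.28 for MPA + Guanine and 1.22 for Guanine, where the comparators of MPA and of MPA + Guanine include the Guanine library, and 3 rather than 5 lysine genes were at least 2-fold higher in Guanine. With totals without ribosomal protein genes it was 0.13 for MPA + Guanine against DMSO and -1.37 for MPA + Guanine against Guanine, and with TMM scaling -1.21 for the latter. TMM moved the median of all genes from 0.18 to -0.03 for MPA against DMSO, from 0.26 to 0.05 for MPA + Guanine against DMSO and from 0.15 to -0.04 for MPA + Guanine against Guanine. Over all alternatives the sum for Guanine against DMSO ranged from 1.22 to 1.53, and without any single gene from 1.37 to 1.53. With the deepest 5% of cells left out, 1 lysine gene rather than 0 was at least 2-fold higher in MPA than in DMSO. At 1.5-fold, 2 lysine genes were higher in MPA and 2 in MPA + Guanine against DMSO, beside 25.2% and 27.5% of all genes. In MPA + Guanine against Guanine 4 were lower, beside 18.4% of all genes. In MPA + Guanine against MPA 2 were higher, beside 22.0% of all genes.

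The share of cells with a lysine UMI, for DMSO, Guanine, MPA and MPA + Guanine, was 18.0%, 37.9%, 21.2% and 24.3% at 200 UMIs, 42.7%, 74.3%, 53.9% and 51.1% at 600 UMIs, and 60.5%, 70.9%, 64.7% and 63.8% without thinning. The Guanine cells kept at 600 UMIs were 81 of Guanine.1 and 98 of Guanine.2, against 135 and 123 without thinning. The variance to mean ratio in DMSO was 1.12 at 200 UMIs, with an interval that included 1, and 1.40 at 600 UMIs (1.17 to 1.71). In MG.3 the lysine sum was 1506 CPM without cells in which 1 gene held over 10% of the UMIs. Pathway sums over genes with UMIs in both libraries, the minimum of 50 UMIs for the genes tied to lysine, totals over genes with UMIs in all 4 libraries, and leaving out the cell with the most lysine UMIs of each library, were chosen after seeing the data. Depth limits *LYS2*, *LYS4* and all values in MPA and MG.3. No paired analysis was possible because each condition had 1 library.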
